A study of Homo sapiens with 6 samples.

Results

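The genes of 8 helicases from families known for unwinding G-quadruplexes (G4s), and that of PARP1, were examined for G4 signal at their own loci, 9 of the 19821 protein-coding genes that RefSeq places on the autosomes or the X chromosome. They were chosen by name: BLM, WRN, BRIP1, RECQL, RECQL4, RECQL5, RTEL1, PIF1 and PARP1. A gene counted as marked when a peak lay inside it or within 1 kb of either end. The 9 genes together span 602 kb. G4s are stacked structures formed by guanine-rich single strands. The assay was ChIP-seq with BG4, a G4 antibody, in U2OS cells, an established osteosarcoma line of human origin. One group of cells was untreated (Ctrl) and the other was treated with 1,6-hexanediol (HD), an alcohol that disperses many biomolecular condensates. The dose and exposure time were not stated in the labels. Each condition had 2 BG4 libraries and 1 input library, and 1 peak list per condition was analysed (3507 Ctrl and 2269 HD peaks). No values per library were used here, so no difference between conditions could be tested against the spread between libraries. All 2269 HD peak names carry the number of replicate 1, so that list may rest on 1 library.

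Helicases of the RecQ family (BLM, WRN, RECQL, RECQL4 and RECQL5) translocate along single-stranded DNA in the 3′ to 5′ direction. BRIP1, also known as FANCJ, and RTEL1 are iron-sulfur cluster helicases that move the opposite way, as does PIF1. Several of these enzymes resolve G4s that would otherwise block replication forks or telomeres. Inherited loss of BLM, WRN or RECQL4 causes the Bloom, Werner and Rothmund-Thomson syndromes, and BRIP1 is a Fanconi anaemia gene. PARP1 is not a helicase. It senses DNA breaks, builds poly(ADP-ribose) chains and has been reported to bind G4 structures.

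The start regions of the 3 marked genes with a RefSeq sequence are shown first, because every summit found at them lay there. RefSeq start-site windows of 300 bases (GRCh38.p14, the assembly of hg38) were matched for 7 of the 9 genes. The 250 bases before each start are printed in the direction of the gene, with runs of at least 3 G or at least 3 C in capitals. A C run is a G run of the opposite strand.
BLM (hg38, chr15:90717096-90717345, plus strand): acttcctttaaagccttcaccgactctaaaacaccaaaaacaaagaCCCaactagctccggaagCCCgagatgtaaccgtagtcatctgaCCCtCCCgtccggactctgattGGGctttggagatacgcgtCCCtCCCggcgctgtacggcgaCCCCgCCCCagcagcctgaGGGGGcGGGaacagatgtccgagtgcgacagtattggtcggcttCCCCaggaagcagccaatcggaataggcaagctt
BRIP1 (hg38, chr17:61863529-61863778, minus strand): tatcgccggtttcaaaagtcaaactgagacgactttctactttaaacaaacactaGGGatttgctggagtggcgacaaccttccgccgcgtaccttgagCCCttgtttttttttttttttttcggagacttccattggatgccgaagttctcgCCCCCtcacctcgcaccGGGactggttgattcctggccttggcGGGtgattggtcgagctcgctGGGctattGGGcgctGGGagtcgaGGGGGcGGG
PARP1 (hg38, chr1:226408094-226408343, minus strand): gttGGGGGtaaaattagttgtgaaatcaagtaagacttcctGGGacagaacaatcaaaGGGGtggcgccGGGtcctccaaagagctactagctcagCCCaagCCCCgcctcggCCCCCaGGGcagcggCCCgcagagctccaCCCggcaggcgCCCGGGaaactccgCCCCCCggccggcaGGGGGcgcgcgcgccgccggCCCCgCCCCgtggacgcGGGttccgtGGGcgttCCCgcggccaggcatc
The G runs of the BRIP1 sequence crowd at its end, next to the start site. Those of BLM are scattered, and at BLM and PARP1 they occur on both strands. Over the 300-base windows BLM had 5 runs on the strand of the gene and 9 on the other, and PARP1 had 10 on each.

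In untreated cells BLM, BRIP1 and RECQL4 were marked, and after hexanediol RECQL4 and PARP1 were. RECQL4 was thus the member with a peak in both lists, BLM and BRIP1 had one in Ctrl only, and PARP1 in HD only. WRN, RECQL, RECQL5, RTEL1 and PIF1 had none in either list. These are 3 of 9 genes in Ctrl, where 13.3% of all protein-coding genes were marked by the same rule, and 2 of 9 in HD, where 9.54% were. Across all genes 6.24% were marked in both lists, 7.02% in Ctrl only, 3.30% in HD only and 83.4% in neither, against 1, 2, 1 and 5 of the 9. Of all marked Ctrl genes 47.0% were also marked in HD, and of all marked HD genes 65.4% were also marked in Ctrl, against 1 of 3 and 1 of 2 here. With 9 genes chosen by name and earlier results of these data known, these counts are a description and nothing particular to the group is read from them.

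**Figure D1:**
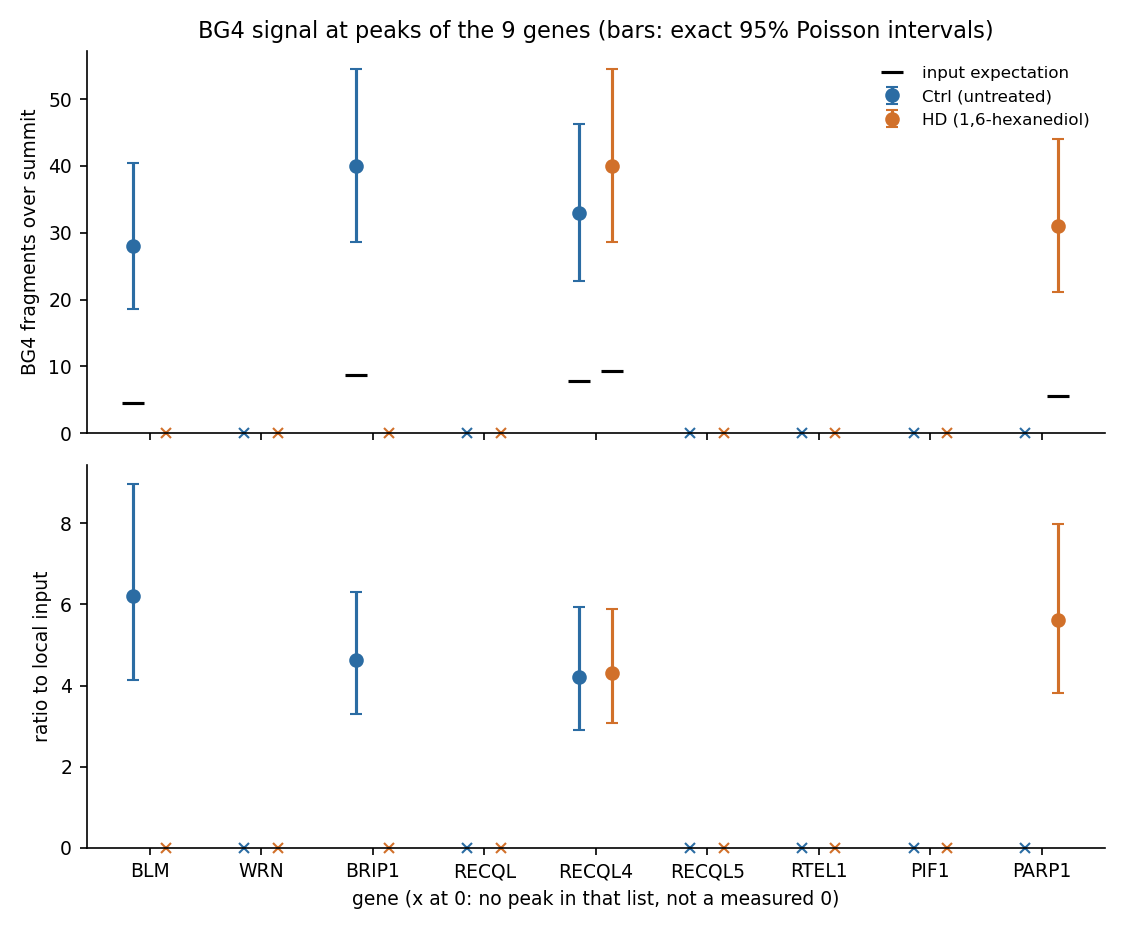
BG4 fragments over the summit (upper panel) and their ratio to the local input expectation (lower panel) for each of the 9 genes in the Ctrl and HD lists, with exact 95% Poisson intervals and black dashes for the input expectation. The 5 peaks held 28 to 40 fragments against 4.51 to 9.27 from input, and 5 genes had no peak in either list.

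The number of fragments over each summit was recovered from the fold enrichment and p-value that the authors deposited. It is given with the number that the caller expected there from input, on the same scale. Intervals are exact 95% Poisson intervals, take the input as known, and cover only counting error, not the spread between libraries. Reads copied by amplification are not separate molecules, so the intervals may be too narrow. The genome-wide expectation was 3.74 fragments over a base in Ctrl and 5.51 in HD, so HD numbers have to be divided by 1.47 to be set beside Ctrl numbers. The lowest number at any called summit was 15 in Ctrl and 20 in HD. Numbers exist only for summits that passed the caller's threshold, so they tend to run high. The intervals do not cover this, nor do those of numbers scaled to the other list.

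BLM, the helicase that dissolves recombination intermediates together with topoisomerase IIIα, had 28 fragments in Ctrl (18.6 to 40.5) against 4.51 from input. That is 6.21 times the input (4.13 to 8.98), the highest ratio of the 5 peaks, although its interval overlaps those of the other 4. The peak (gene ID 641, chromosome 15, hg38, 90717151 to 90717484) was 334 bp wide and its summit lay 50 bp before the gene's start. Its deposited fold of 5.21 exceeded that of 83.0% of Ctrl peaks, whereas its fragment number exceeded that of 48.2%. One end of the lncRNA gene CRTC3-AS1 lies 156 bp from the summit, so the peak cannot be given to BLM alone. The nearest HD peak was 277 kb away. At the coverage of the HD list, the Ctrl signal would be 41.3 fragments (27.4 to 59.7), and 23 would have been needed for a call if local input stood to the genome-wide level as in Ctrl. The HD fragments at this site were not analysed here, and the Ctrl number is from a called summit, so a loss of signal was not tested.

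BRIP1, the helicase that binds the BRCA1 protein, carried the broadest of the 5 peaks. The Ctrl peak (gene ID 83990, chromosome 17, hg38, 61863073 to 61863660) was 588 bp wide, wider than 96.0% of the Ctrl list, and 456 bp of it lay inside the gene. Its summit was 32 bp before the start and held 40 fragments (28.6 to 54.5) against 8.63 from input, a ratio of 4.63 (3.31 to 6.31). Input was high at this site, 2.31 times the genome-wide level, against 1.21 times at BLM. The order of the Ctrl peaks therefore differed with the measure: BRIP1 was first by fragments and BLM by ratio to input, but the intervals overlapped on both. The nearest HD peak was 64.1 kb away, with its summit 28 bp from an end of INTS2, an Integrator subunit gene. INTS2 adjoins BRIP1, and its other end lay 1807 bp from the BRIP1 Ctrl summit. That HD peak held 34 fragments and overlapped no Ctrl peak. Scaled to HD coverage, the BRIP1 signal would be 59.0 fragments (42.1 to 80.3), and 34 would have been needed at the same relative input. This number too is from a called summit and HD fragments here were not analysed, so a loss of signal was not tested.

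RECQL4, a RecQ helicase that also takes part in the initiation of replication, was marked in both lists. Its Ctrl peak (gene ID 9401, chromosome 8, hg38, 144517795 to 144518029) had 33 fragments (22.7 to 46.3) against 7.82 from input, and its HD peak (144517815 to 144518024) had 40 (28.6 to 54.5) against 9.27. The HD peak, 210 bp wide, lay wholly within the Ctrl peak, and the summits were 48 bp apart. The ratios to input were 4.22 (2.91 to 5.93) in Ctrl and 4.31 (3.08 to 5.88) in HD. The HD to Ctrl ratio was 1.02 (0.629 to 1.67) after division by local input and 0.822 (0.505 to 1.35) after division by genome-wide coverage, with exact conditional binomial intervals. A ratio of 1 lay inside both intervals. Across 1296 Ctrl peaks with a single overlapping HD peak the median ratio by coverage was 0.904, with quartiles of 0.782 and 1.02. Both RECQL4 summits lay outside the gene, 30 bp (Ctrl) and 78 bp (HD) from its upper end. They were 129 bp and 81 bp from the lower end of LRRC14, a neighbouring protein-coding gene, so the peak belongs to the interval between these 2 genes and not to RECQL4 alone.

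PARP1 was the member marked in hexanediol-treated cells and not in untreated cells. The HD peak (gene ID 142, chromosome 1, hg38, 226408104 to 226408362) lay entirely before the gene, 11 bp from its start at the nearest base, with the summit 111 bp before the start. It held 31 fragments (21.1 to 44.0) against 5.51 from input, a ratio of 5.62 (3.82 to 7.98). The caller's expectation there was its genome-wide value, the lowest it uses, so local input may have been lower. In all, 20.6% of HD peaks had fewer fragments. No other gene had an end within 1 kb. The nearest Ctrl peak was 345 kb from it, near H3-3A, which encodes histone H3.3. At Ctrl coverage the HD signal would be 21.0 fragments (14.3 to 29.8), and 15 would have been needed for a Ctrl call at the genome-wide expectation, so the lower bound lies under that number. The Ctrl fragments at this site were not analysed here, and the HD number is from a called summit, so a gain of signal was not tested.

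**Figure D2:**
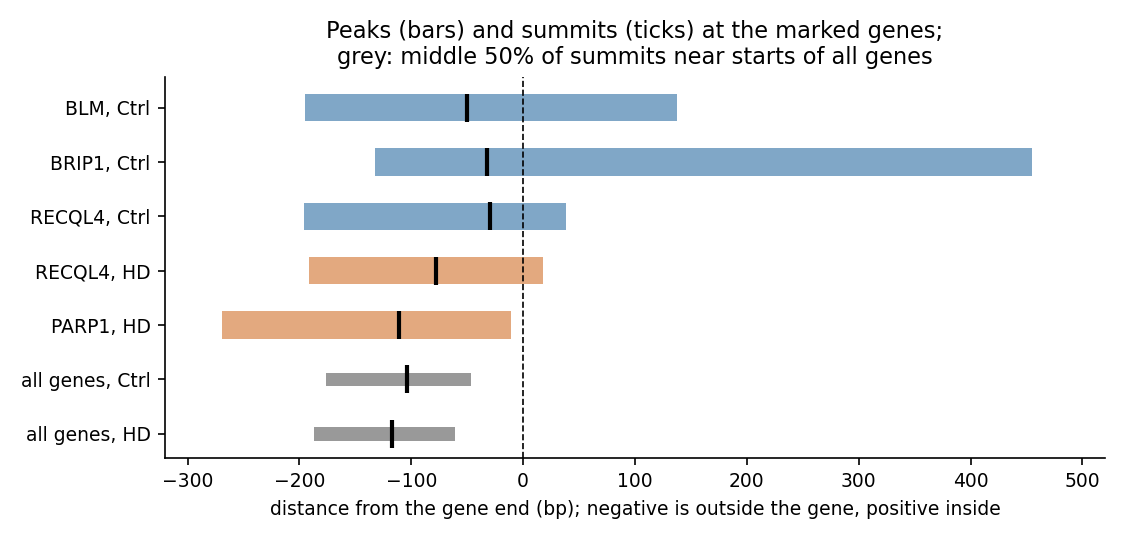
Position of the 5 peaks relative to the nearest end of their gene in bp, with negative values outside the gene, bars for the peak and ticks for the summit. Grey bars give the middle 50% of summits within 1 kb of a start over all protein-coding genes with a RefSeq window. All 5 summits lay 30 to 111 bp outside the gene, and the BRIP1 peak reached 456 bp into it.

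All 5 peaks were at one gene end, and none of the summits lay in the interior of a gene. At BLM, BRIP1 and PARP1, whose strand is given by the RefSeq windows, that end was the start. This is also the usual place in these lists. Of 1821 marked genes of at least 10 kb with a known strand, 76.8% carried a Ctrl peak at the start and not at the other end, and 42 carried one at the other end only. In HD the share was 77.9% of 1305 genes. Over all genes with a summit within 1 kb of a start, the median summit position was -104 bp in Ctrl (quartiles -176 and -47 bp) and -117 bp in HD (-187 and -61 bp), negative values being before the start. BLM at 50 bp and PARP1 at 111 bp fell within these quartiles, and BRIP1 at 32 bp lay closer to the start than the nearer quartile.

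The 5 unmarked genes were far from any peak, so the 1 kb window did not decide their status. The shortest distance was 14.4 kb, from PIF1, which encodes a helicase of nuclear and mitochondrial DNA, to a Ctrl peak at PLEKHO2, and its nearest HD peak was 163 kb away at SPG21. For RTEL1, which dismantles telomeric loops, the distances were 433 kb (Ctrl) and 385 kb (HD). For RECQL, the most abundant human RecQ enzyme in many cells, they were 600 kb and 31.0 kb, the HD peak being at PYROXD1. RECQL5, which binds RNA polymerase II, was 117 kb from a Ctrl peak at UNK and 37.4 kb from an HD peak near MYO15B. WRN, the RecQ member that also carries an exonuclease, was 306 kb from a peak in each list. That was the same site at GSR, the glutathione reductase gene, with 24 Ctrl and 33 HD fragments. For the other 4 unmarked genes the nearest Ctrl and HD peaks were different sites.

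**Figure D3:**
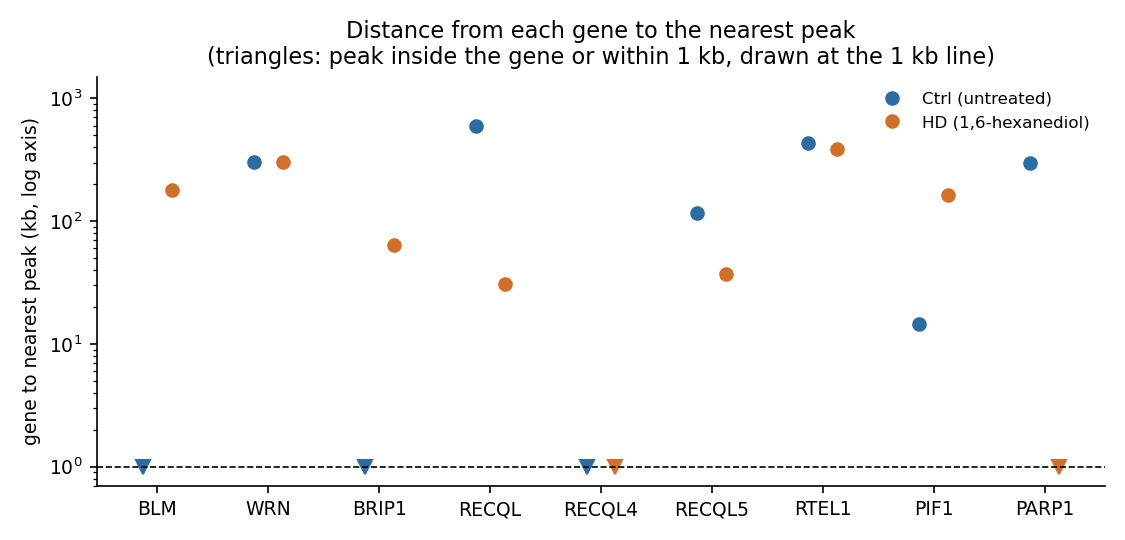
Distance from each of the 9 genes to the nearest peak in the Ctrl and HD lists, in kb on a log axis, with triangles at the 1 kb line for genes with a peak inside or within 1 kb. The unmarked genes lay 14.4 to 600 kb from a Ctrl peak and 31.0 to 385 kb from an HD peak.

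The start-site windows were searched on both strands for the common G4 pattern, in which GGG or longer runs occur 4 times with 1 to 7 bases of any kind (N) between them. It was present in 30.4% of 22012 windows of protein-coding genes. It was in 39.3% of the 1916 windows touched by a Ctrl peak, in 38.9% of the 1380 touched by an HD peak and in 29.5% of those touched by neither. Windows touched by a peak made up 8.70% of all windows in Ctrl and 6.27% in HD. Positions are counted from the start site, with the start itself at 0. Of the 7 genes with a window, BRIP1 and RTEL1 held the pattern, both on the strand of the gene, and the matches are shown because one had a peak on it and the other none.
BRIP1, bases -33 to -5: GGGctattGGGcgctGGGagtcgaGGGGG
RTEL1, bases -103 to -74: GGGGccttctGGGGccttctGGGGcatGGG
The BRIP1 summit, 32 bp before the start, fell within its match. RTEL1 had no peak in either list. BLM, with the highest ratio to input, held no match on either strand, and neither did PARP1. With loops of 1 to 12 bases, which includes every match of the shorter pattern, 45.4% of all windows, 59.7% of those touched in Ctrl and 60.3% of those touched in HD had one. PARP1 then had a match of 45 bases on the opposite strand, at -122 to -78, and RECQL and both RTEL1 windows also had one. The PARP1 summit at -111 lay within that match.
PARP1, opposite strand, bases -122 to -78: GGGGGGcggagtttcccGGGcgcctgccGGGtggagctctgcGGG
BLM, RECQL5 and PIF1 had no match under either pattern. A match is a description of the letters in the window and is neither a folded G4 nor a binding site, and a missing match says only that these letters are not in this window. The BLM, BRIP1 and PARP1 peaks each extended beyond their windows, and those parts were not searched.

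The base composition of the marked genes overlapped that of the unmarked ones. The windows touched by a Ctrl peak had a median GC content of 68.7% (quartiles 63.3 and 73.0), against 62.3% over all windows. BLM at 61.3% and BRIP1 at 55.3% both lay under the lower quartile of the touched windows. PARP1 had 70.0%. Among the unmarked genes PIF1 had 54.7%, RECQL 56.3%, RECQL5 57.7%, and the RTEL1 windows 65.3% and 66.3%. Runs of at least 3 G, counted over both strands, numbered 14 at BLM, 14 at BRIP1 and 20 at PARP1, against a median of 14 over all windows and of 17 over those touched in either list. RECQL had 13, RECQL5 had 12, the RTEL1 windows had 15 and 13, and PIF1 had 7. BRIP1 was lopsided, with 12 runs on the strand of the gene and 2 on the other. The GC box GGGCGG was found on at least 1 strand in 56.3% of all windows and in 87.0% of those touched in Ctrl. It was present at BLM, BRIP1 and PARP1, at RECQL5 and in the second RTEL1 window, and not at RECQL or PIF1.

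**Figure D4:**
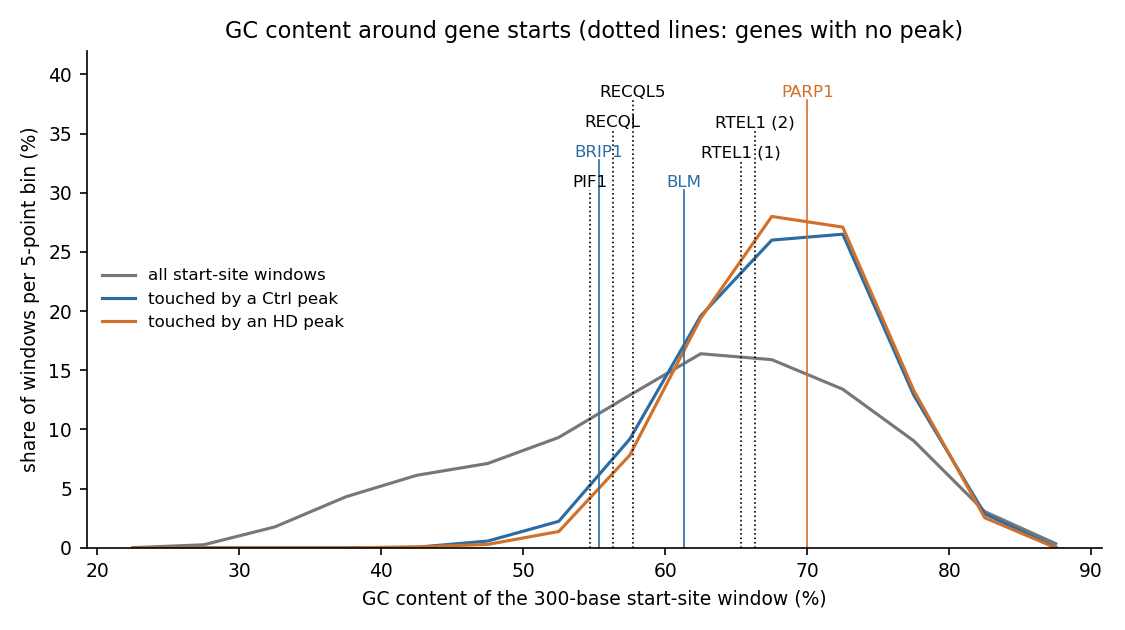
GC content of 300-base start-site windows, as the share of windows per 5-point bin, for all windows and for those touched by a Ctrl or HD peak, with vertical lines for the 7 genes that have a window (RTEL1 has 2). BLM and BRIP1 (61.3% and 55.3%) sit below the lower quartile of the touched windows, and PARP1 (70.0%) sits within their range.

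By rank of −log10 q in the authors' deposited table, the 5 peaks lay between rank 767 and rank 1655 of their lists. BRIP1 was at rank 767 of 3507 in Ctrl, between YTHDF1 and BNIP2. BLM was at rank 1083, between FBXO32 and RWDD3, and RECQL4 at 1655, between TUFM and CEP120. In HD, PARP1 was at rank 1013 of 2269, 1 of 40 peaks with the same −log10 q. The nearest marked genes at another rank were SLX1A (1011) and HNRNPA3 (1053). RECQL4 was at 1158, between TOB1 and ZCCHC24. The Ctrl peaks next to BLM held 35 (FBXO32) and 26 fragments (RWDD3), at 4.73 and 6.29 times the input. Ranks of lists of different length show no change between conditions. Overlap with the other list was found for 38.5% of all Ctrl peaks and for 59.7% of all HD peaks, against 1 of the 3 Ctrl peaks and 1 of the 2 HD peaks of these genes.

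Genes that work with these helicases or beside them were counted by the same rule, and their shares are read against the 13.3% of all genes marked in Ctrl and the 9.54% in HD. Of 14 other helicases that act on G4s or related structures, 1 was marked in Ctrl and 1 in HD (7.14% each). DDX5, an RNA helicase that also unfolds G4 DNA, was marked in both lists. It had 32 fragments (21.9 to 45.2) in Ctrl and 50 (37.1 to 65.9) in HD. The HD to Ctrl ratio was 1.06 by coverage (0.667 to 1.71) and 0.827 by local input. The other 13 genes of this list, such as DHX36, DHX9, DNA2 and ATRX, had no peak in either list.

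Among 22 partner genes of the helicases, covering the BLM complex, single-strand binding, crosslink repair and telomere protection, 7 were marked in Ctrl (31.8%) and 6 in HD (27.3%), with 3 in both. TOP3A and RMI1 encode partners of BLM in double Holliday junction dissolution. TOP3A had 21 Ctrl and 33 HD fragments, and RMI1 had 18 in Ctrl and no HD peak. SLX4, a scaffold of structure-specific nucleases, had 26 and 40. PCNA, the sliding clamp of replication, had 30 and 45, and its HD peak, at rank 192, stood at 7.84 times the input against 5.56 in Ctrl. Divided by coverage, the HD to Ctrl ratios of these 3 shared sites were 1.07 at TOP3A, 1.04 at SLX4 and 1.02 at PCNA, each with an interval that includes 1 (0.598 to 1.94, 0.621 to 1.78 and 0.627 to 1.67). Divided by local input instead, the ratios were 0.692 at TOP3A, 1.09 at SLX4 and 1.41 at PCNA. The TOP3A ratio thus turned to the other side of 1. No intervals were computed for the ratios by local input, so no direction is read from them. RPA3, a subunit of the single-strand binding complex RPA, had 35 Ctrl fragments at 7.09 times the input, at a summit 4070 bp inside the gene. TERF2, a telomere protein that caps chromosome ends, had 20 Ctrl fragments 5 bp from a gene end, and TERT, the catalytic subunit of telomerase, had 35 in a peak 19560 bp from the nearest gene end. MRE11, a nuclease of break repair, FANCA, a Fanconi core complex gene, and ACD, a telomere protein, were marked in HD only. They had 27, 29 and 32 fragments. The MRE11 summit lay 18500 bp inside the gene, and those of FANCA and ACD lay 123 and 26 bp from a gene end.

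Of 16 genes of PARP enzymes and ADP-ribose metabolism, 5 were marked in Ctrl (31.2%) and 3 in HD (18.8%), all 3 of them also in Ctrl. PARP3, a PARP enzyme active at DNA breaks, had the highest numbers. It had 48 fragments in Ctrl (35.4 to 63.6) and 58 in HD (44.0 to 75.0), at 7.18 and 5.92 times the input. The HD to Ctrl ratio was 0.819 by coverage (0.549 to 1.23) and 0.825 by local input. APLF, a histone chaperone that reads poly(ADP-ribose), had 31 and 27, a ratio of 0.591 by coverage (0.339 to 1.02) and of 0.886 by local input. CHD1L, a remodeller that PARP1 activates, had peaks at different places, 23 Ctrl fragments 53121 bp from the nearest gene end and 26 HD fragments 88 bp from one. PARP2, the closest relative of PARP1, had 25 Ctrl fragments at a summit 34 bp outside the gene and no HD peak. PARP10 was marked in Ctrl by 2 peaks, which held 29 and 22 fragments, and was unmarked in HD. Their summits lay inside the gene, 81 and 6672 bp from its nearest end. The second peak, at rank 3424 of 3507, was near the bottom of the Ctrl list. PARP1 and PARP2 were therefore marked in opposite lists, each by a single peak with no replicate check. Ends of other genes were looked for only near member peaks. Peaks of genes in the 3 further lists, PARP2 included, may therefore belong to a neighbouring gene as well.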

How the data were processed

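BG4 ChIP-seq was done on U2OS cells, 6 libraries in all. Per the labels, cells were fixed with formaldehyde at 1% for 10 min. The submitters' processing notes name Bowtie2 2.5.0, SAMtools, MACS2 2.2.7.1 and hg38. Caller settings and whether libraries were pooled were not stated there. The authors deposited 1 peak list per condition, in which each peak has a summit and a fold enrichment over local background, which is a ratio. The deposited lists also give −log10 of p and of q for each peak. Their score column, deposited by the authors, is 10 times −log10 q and was not used.

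Fragments over a summit were recovered as the whole number whose scaled pileup gives both the deposited fold, (pileup + 1) / (expectation + 1), and the deposited −log10 p, an upper Poisson tail, within 0.01. The scale was 0.927 in Ctrl and 0.715 in HD. A number was found for 3498 of 3507 Ctrl and 2263 of 2269 HD peaks, and exactly 1 fitted each of the 5 member peaks. On simulated lists of 1500 peaks, 95.3% (run named Ctrl) and 100% (run named HD) of numbers were recovered. The simulated lists used the same formulas, with scales and expectations other than those found here. They check the arithmetic and not whether the deposited values follow these formulas. This step followed an earlier treatment of these data.

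Genes came from a RefSeq table of GRCh38.p14, without scaffolds. Peaks off chromosomes 1 to 22 and X (131 Ctrl, 97 HD) were left out of the counts of genes and shared peaks. An overlap needed at least 1 bp. No test was run, since each condition has 1 list. All members are named, with every marked gene of the 3 further lists. Any other gene with an end within 1 kb of a member peak is named too. The marked genes at the next rank above and below a member are also named, ties left out. Genes at the nearest peaks were named after their values were seen. An item of the list of other G4 helicases is not reported here. Members and lists were chosen with earlier results of these data known. Python 3.11.15, pandas 2.3.3 and SciPy 1.17.1 were used.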

Additional observations from a re-analysis of the deposited data

How the results depend on the processing

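The members marked in Ctrl (BLM, BRIP1, RECQL4), in HD (RECQL4, PARP1) and in both lists (RECQL4) were the same genes with windows of 500 bp and 2 kb, with gene ends only, with the summit required in the window, at −log10 q of at least 2 and of at least 3, and with lists of equal length. The overlap of member peaks was unchanged when at least 0.5 of either peak had to be shared, when a peak within 500 bp counted, and at both stricter q-values. Each of the 52 alternatives run, over the members and the 3 further lists, left the count within 1.5 times or the ratio within its interval. Within that tolerance some counts of the further lists fell. With gene ends only, partner genes fell from 7 to 5 in Ctrl, without RPA3 and TERT, and from 6 to 5 in HD, without MRE11. At −log10 q of at least 3 they were 6 in Ctrl, without RMI1, and 5 in HD, without TOP3A. PARP pathway genes in Ctrl fell from 5 to 4 with gene ends only, without CHD1L. For the members, most of these alternatives could hardly have changed the result. Their summits lay 30 to 111 bp from a gene end with −log10 q of at least 5.86. The unmarked members were at least 14.4 kb from any peak, and the HD RECQL4 peak lay wholly within the Ctrl peak. Unchanged member counts are therefore not evidence of robustness. No library could be left out and no paired analysis was possible because each condition has 1 peak list and no value per library. Depth limits these results: the 5 peaks held 28 to 40 fragments, and a missing peak is a missing call, not a measured absence.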

Other observations

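The share of start-site windows touched by a peak rose with GC content and then fell. It was 0.278% in Ctrl and 0.116% in HD below 50% GC (4318 windows), 4.47% and 2.60% from 50% to 60%, 12.3% and 9.22% from 60% to 70%, 15.2% and 11.3% from 70% to 80%, and 7.45% and 4.65% from 80% upward (752 windows). BRIP1, at 55.3%, was thus marked in a range where few windows were. The RTEL1 windows, at 65.3% and 66.3%, were unmarked, as were most windows in their range. The CCAAT box (CCAAT on either strand) was in 34.7% of all windows, in 51.2% of those touched in Ctrl and in 53.5% of those touched in HD. It was found at BLM, BRIP1, RECQL, RECQL5 and PIF1, and not at PARP1 or in either RTEL1 window.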
